A study of Mus musculus with 4 samples.

Results

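The NMDA receptor subunits are the 7 genes Grin1, Grin2a, Grin2b, Grin2c, Grin2d, Grin3a and Grin3b. They were taken by gene name from the non-control spots of 4 mouse arrays, and every probe of each gene was used. They account for 7 of 34964 gene names and 11 of 55681 distinct probes. The experiment was an RNA immunoprecipitation: lysate from the cortex and hippocampus of 8-week-old male C57BL/6 mice was kept for 3 h with beads carrying either CPEB3 IgG or control IgG. The RNA that came down was amplified, given a Cy3 label and read on 1-colour Agilent arrays, with 2 arrays for CPEB3 IgG (replicates 1 and 2) and 2 for control IgG (replicates 1 and 2). Both groups share strain, sex, age, tissue and incubation time and differ in the antibody, and the labels name no genetic change in the mice. The sources used here do not say how many animals went into a lysate or whether the replicates came from separate lysates, so every p-value measures the spread between these arrays, which may be technical. Lysate without precipitation and tissue without CPEB3 were not analysed here, so each value is a share of the precipitated RNA relative to control IgG. In a lysate of whole tissue, fewer cells of a type and less RNA per cell cannot be told apart.

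NMDA receptors are cation channels of excitatory synapses that open when glutamate and a co-agonist bind while the membrane is depolarised, and calcium entry through them starts synaptic plasticity. The GluN1 subunit (Grin1) is required in every receptor and binds glycine or D-serine. The GluN2 subunits (Grin2a to Grin2d) bind glutamate and set the kinetics of the channel, and the GluN3 subunits (Grin3a and Grin3b) bind glycine and lower calcium permeability. CPEB3, cytoplasmic polyadenylation element binding protein 3, is an RNA-binding protein of neurons through which the translation of its target mRNAs is controlled, and it is known to bind U-rich sequence in their 3′ ends.

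Each probe is a 60-base stretch of the transcript, and several subunits have a pair of probes that lie at different places on the gene. They are called the 5′ and the 3′ probe after their order along the gene. The 30 bases richest in T are shown for the probes of the subunits whose values differed most between the precipitates or between the probes of a gene, and for Grin2c and Grin2d, which hold runs of T. Capitals mark runs of at least 4 T and the motif TTTTAT within the bases shown, and each coordinate is that of the whole probe on mm9, on the strand given. The 3′ probe of Grin2b also holds a run of 4 T, which lies outside the bases shown.
Grin3a 3′ probe, chr4:49674688-49674747, minus strand: TTTTATgaaaatgaagtgcttctaagtatt
Grin3a 5′ probe, chr4:49678098-49678157, minus strand: ttgaggagtatcaaaggacgaaccggactt
Grin2b 3′ probe, chr6:135680066-135680125, minus strand: tttacctcagtatctctcatttaaatgcca
Grin2b 5′ probe, chr6:135681653-135681712, minus strand: ggtgtttatctaaggaaggccattgaacct
Grin2a 3′ probe, chr16:9577803-9577862, minus strand: taaacgttggatgtccaatagcaccctact
Grin2a 5′ probe, chr16:9579338-9579397, minus strand: atagtctcagtaactatgtgtttcagggac
Grin2c probe, chr11:115110483-115110542, minus strand: ttggttggaatttcTTTTcataggaacatt
Grin2d probe, chr7:53087859-53087918, minus strand: actcTTTTTTaaacccgaaaagggcTTTTT
Grin3b probe, chr10:79439842-79439901, plus strand: ccacactgtccacgacagtttattctatat

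The other probes were those of Grin1, on the minus strand at chr2:25147922-25147981 (5′) and chr2:25146927-25146986 (3′). The files give each probe's start on its transcript, and exon and UTR positions on mm9 were not analysed here. The 5′ and 3′ probes of Grin1 start at bases 3000 and 3591 and those of Grin3a at bases 3288 and 7226, in each case on different transcript entries. Those of Grin2a start at bases 2917 and 4452 and those of Grin2b at bases 5615 and 7202 of the same transcript. The probes of Grin2c, Grin2d and Grin3b start at bases 4835, 4317 and 3180. A probe's brightness depends on the probe itself, so the level of a probe was not ranked against that of another probe, and where probes of a gene are set against each other it is the change of their gap between arrays that was tested.

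Levels are given on a log2 scale, as the processed signal relative to the 75th percentile of its own array, and a difference is the mean with CPEB3 IgG minus the mean with control IgG on that scale. A probe was called where limma gave an adjusted p under 0.05 over the 40608 probes that were well above background on 2 or more arrays. All 11 NMDA receptor probes passed that filter, and 10 of them were well above background on all 4 arrays. The 75th percentile of the signal was between 353 and 507 units, 68.0% to 73.4% of probes were well above background, and 0 non-control spots were saturated. Replicate arrays correlated at 0.986 (CPEB3 IgG) and 0.977 (control IgG) over the tested probes, and arrays of different antibodies at 0.925 to 0.939. All arrays were on 1 slide, where the row of the array went with the antibody, so the row and the antibody cannot be told apart. Of the tissue markers, 4 of 4 genes of excitatory forebrain neurons and 3 of 3 of inhibitory neurons were well above background on all 4 arrays, as were 4 of 4 for astrocytes, oligodendrocytes and microglia and 3 of 3 for endothelium. The granule cell markers of the cerebellum, Gabra6 and Cbln3, were well above background on all 4 arrays in 0 of 2 cases.

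Of the 11 NMDA receptor probes, 1 was called higher with CPEB3 IgG, the 3′ probe of Grin3a, and the probe of Grin3b met the threshold for lower. The Grin3b probe entered the test only through the control arrays, the group where it was brighter, so its call is no support for a difference. The other 9 did not pass. Among all probes tested, 34.7% were called, 15.8% higher and 18.9% lower, and of the called probes 45.5% were higher, against 66.2% with median scaling and 87.0% with spike-in scaling. A smaller share of the NMDA receptor probes than of the array was called, a difference that was not tested. The median difference was 0.19 over the 11 probes and -0.19 over all 40608. Groups that did not overlap were common, since 71.3% of all tested probes had them, and 8 of the 11 NMDA receptor probes did.

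**Figure D1:**
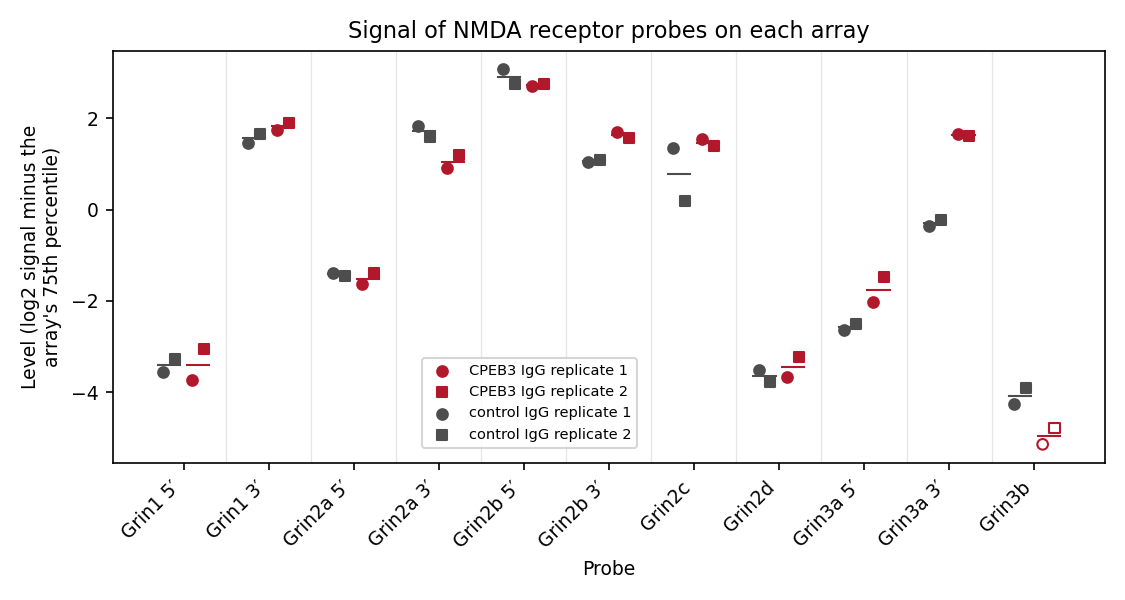
Level of each NMDA receptor probe on each array (log2 signal relative to that array's 75th percentile). Circles are replicate 1 and squares replicate 2, lines are group means, and open symbols are arrays on which the probe was not well above background. The 3′ probe of Grin3a lies at 1.65 and 1.62 with CPEB3 IgG and at -0.35 and -0.23 with control IgG, and heights of different probes are not comparable.

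Grin1, the subunit that every NMDA receptor contains, was not called at either probe. Its 3′ probe, on transcript variant 2, read 1.75 and 1.91 with CPEB3 IgG, against 1.47 and 1.66 with control IgG. Both CPEB3 IgG arrays lay above both control arrays, by less than the spread that the test allows. The difference was 0.27 ± 0.17 (SE, n = 2 per group), with an interval from -0.20 to 0.74 and an adjusted p of 0.288. The 5′ probe, on transcript variant 1, was dim, at -3.74 and -3.07 with CPEB3 IgG, against -3.55 and -3.28 with control IgG. The 2 CPEB3 IgG arrays lay on either side of the controls, and the difference was 0.01 (-0.77 to 0.79, adjusted p = 0.980). At the 3′ probe, a difference of up to 0.74 lies within the interval. The value of that probe depended on the scale, at 0.13 with quantile normalisation, 0.56 with median scaling (adjusted p = 0.0690) and 0.99 with spike-in scaling (adjusted p = 0.248).

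Grin2a and Grin2b, the GluN2 subunits of the adult forebrain, differed from control IgG in opposite directions at their 3′ probes, and neither probe passed the test, though each passed in 4 of 15 other settings. The 3′ probe of Grin2a read 0.92 and 1.19 with CPEB3 IgG, against 1.83 and 1.60 with control IgG. Both CPEB3 IgG arrays were the low ones. The difference was -0.66 ± 0.20 (SE, n = 2 per group), or 1.58-fold (1.0999 to 2.27) lower, with an adjusted p of 0.0622. The 5′ probe of Grin2a read -1.63 and -1.40 against -1.39 and -1.45, so the groups overlapped, and the difference was -0.09 (-0.56 to 0.37, adjusted p = 0.707). With the levels of the spike-in control spots as the scale, the 3′ value was 0.06 (adjusted p = 0.962) and the sign was turned. It was called lower with quantile normalisation (-0.78, adjusted p = 0.0425), normexp background (adjusted p = 0.0191), the filter on all 4 arrays (adjusted p = 0.0433) and the intensity trend (adjusted p = 0.0289).

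The 3′ probe of Grin2b read 1.69 and 1.57 with CPEB3 IgG, against 1.04 and 1.09 with control IgG. The CPEB3 IgG arrays were both above the controls, with a gap larger than the distance between replicates. The difference was 0.57 ± 0.16 (SE, n = 2 per group), or 1.48-fold (1.104 to 2.00), with an adjusted p of 0.0547. It was called higher with median scaling (0.86, adjusted p = 0.0285), normexp background (adjusted p = 0.0400), the filter on all 4 arrays (adjusted p = 0.0392) and the intensity trend (adjusted p = 0.0228). The 5′ probe of Grin2b, at 2.72 and 2.76 against 3.07 and 2.76, gave -0.18 (-0.68 to 0.32, adjusted p = 0.501), with the second control array almost at the CPEB3 IgG arrays. The interval of a single probe is not adjusted for the number of probes, which is why the 3′ intervals of Grin2a (-1.18 to -0.14) and Grin2b (0.14 to 1.00) leave out 0 while the adjusted p did not pass.

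Grin2c encodes a GluN2 subunit best known from cerebellar granule cells and also found in astrocytes, and its value rested on a single control array. Its probe read 1.55 and 1.39 with CPEB3 IgG, against 1.36 and 0.18 with control IgG. The first control array lay next to the CPEB3 IgG arrays and the second far below them, with signals of 1134 and 482. The difference was 0.70 ± 0.43 (SE, n = 2 per group; -0.45 to 1.85) with an adjusted p of 0.265. It was 1.29 (adjusted p = 0.0338) without control IgG replicate 1 and 0.11 (adjusted p = 0.770) without control IgG replicate 2. Of the 4 astrocyte markers 1 was called higher (Slc1a3) and 1 lower (Aldh1l1), and log2 of their summed level was 6.37 and 5.57 with CPEB3 IgG, against 5.42 and 5.08 with control IgG, lowest on the same control array as Grin2c. The part of astrocyte RNA in the Grin2c value was not tested.

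Grin2d, a GluN2 subunit of the developing brain and of interneurons in the adult forebrain, was dim on every array. Its probe read -3.67 and -3.24 with CPEB3 IgG, against -3.52 and -3.78 with control IgG. The groups overlapped, and the difference was 0.19 (-0.42 to 0.81, adjusted p = 0.550). Its signals were 30.9 to 39.8 units on the 4 arrays, so that a difference smaller than the interval was not detectable.

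Grin3a, which encodes the glycine-binding subunit of juvenile and non-conventional NMDA receptors, had the NMDA receptor probe that was called higher with CPEB3 IgG. Its 3′ probe read 1.65 and 1.62 with CPEB3 IgG, against -0.35 and -0.23 with control IgG, from signals of 1589 and 1087 against 347 and 362. Both CPEB3 IgG arrays lay far above both controls, and replicates were close. The difference was 1.93 ± 0.16 (SE, n = 2 per group), or 3.80-fold (2.83 to 5.11), with an adjusted p of 0.00534. It ranked 1419 from the top of the 40608 probes tested, so 3.49% of all probes had a larger positive difference. The call held in each of the 15 other settings tried for it, at differences of 1.77 to 2.64, with the highest adjusted p, 0.0454, without CPEB3 IgG replicate 1.

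The 5′ probe of Grin3a, 3410 bases upstream on the genome, read -2.02 and -1.48 with CPEB3 IgG, against -2.63 and -2.52 with control IgG. The direction was the same as at the 3′ probe and the groups did not overlap. The difference was 0.82 ± 0.24 (SE, n = 2 per group; 0.18 to 1.47), with an adjusted p of 0.0608 that did not pass. It passed in 6 of the 15 other settings, among them quantile normalisation (1.06, adjusted p = 0.0250) and the replicate number as a block (0.82, adjusted p = 0.0421). Grin3a has been described in forebrain interneurons as well as in pyramidal cells. Of the 3 markers of inhibitory neurons 0 were called, with log2 summed levels of 6.20 and 5.65 with CPEB3 IgG, against 6.31 and 6.04 with control IgG. Of the 4 markers of excitatory forebrain neurons 0 were called, at 4.68 and 5.02 against 4.56 and 4.63. Over all genes 39.4% were called. The part of either cell type's RNA in the Grin3a value was not tested.

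Grin3b, the glycine-binding subunit best known from motor neurons, was at the limit of detection. Its probe read -5.15 and -4.79 with CPEB3 IgG, where it was not well above background on either array, and -4.27 and -3.92 with control IgG, where it was on both. The measured means were -4.97 ± 0.26 (SD, n = 2) and -4.09 ± 0.25 (SD, n = 2), and limma gave an adjusted p of 0.0470. The filter kept this probe only because both control arrays were above background, which favours a call of lower, and over all probes without the filter the adjusted p was 0.0933. The CPEB3 IgG side gives only a bound, taken on each such array as the higher of the probe's own signal and the lowest signal well above background. With that bound the level was 1.79-fold lower with CPEB3 IgG, a value that leaves out the spread between arrays. The difference was -0.19 with normexp background and -0.16 with spike-in scaling. The call was lost in 12 of the 14 other settings that could test it, including those without each of the arrays, with adjusted p between 0.0253 and 0.890 over all 14.

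**Figure D2:**
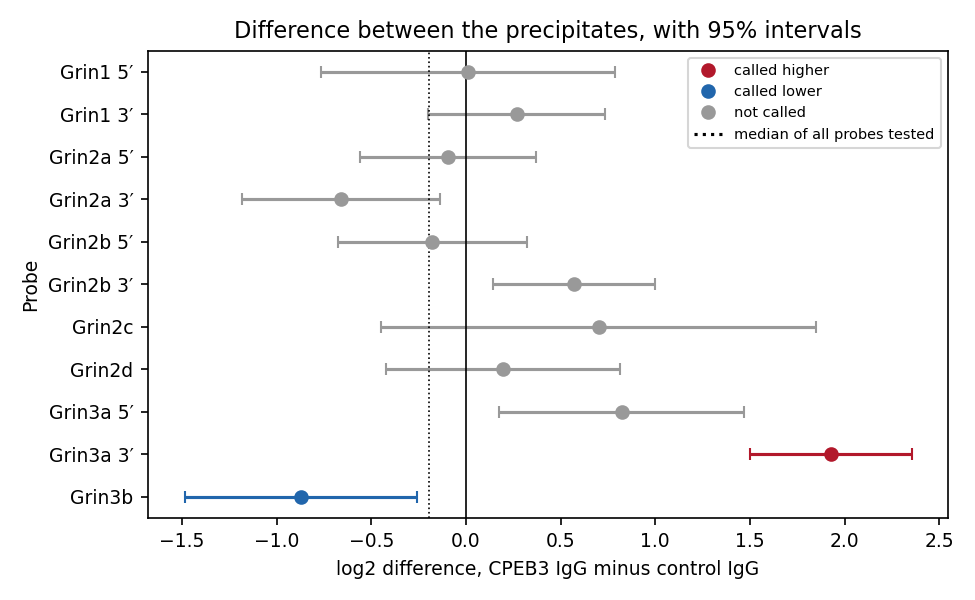
Difference of each NMDA receptor probe between the precipitates (log2, CPEB3 IgG minus control IgG, n = 2 arrays per group), with 95% intervals of the single probe and a dotted line at the median of all probes tested. The 3′ probe of Grin3a stands at 1.93 and the Grin3b probe at -0.87, and the other 9 probes lie between -0.66 and 0.82 and were not called.

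Whether the probes of a gene responded differently was tested on the level of the 3′ probe minus that of the 5′ probe on each array, in which any scaling common to an array cancels. Over 4260 transcripts with probes on the same entry, 33.8% passed, 30.6% with the 3′ probe relatively higher with CPEB3 IgG and 3.17% the other way. Both NMDA receptor genes in that set missed the threshold, in opposite directions. For Grin2a the 3′ probe exceeded the 5′ probe by 2.55 and 2.59 with CPEB3 IgG, against 3.22 and 3.05 with control IgG. The change was -0.57 (-1.02 to -0.12, adjusted p = 0.0656), toward the less common direction. For Grin2b the same subtraction gave -1.03 and -1.19 with CPEB3 IgG, against -2.03 and -1.67 with control IgG. Its change was 0.75 (0.18 to 1.31, adjusted p = 0.0578).

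Ordering probes by their genome position, a choice made after seeing the data, adds Grin1 and Grin3a, and 19.1% of 8162 genes passed in that set, 16.0% with the 3′ probe relatively higher and 3.1% the other way. For Grin3a the 3′ probe exceeded the 5′ probe by 3.67 and 3.11 with CPEB3 IgG, against 2.28 and 2.28 with control IgG. Both CPEB3 IgG arrays were above both controls, and the change was 1.105 (0.35 to 1.86, adjusted p = 0.0646). For Grin1 the change was 0.26 (-0.47 to 0.99, adjusted p = 0.534). In the same set the AMPA receptor genes Gria2 (1.66, adjusted p = 0.0381), Gria3 (1.35, adjusted p = 0.0447) and Gria4 (1.47, adjusted p = 0.0371) passed, as did the kainate receptor genes Grik1 (2.91, adjusted p = 0.0206) and Grik3 (3.98, adjusted p = 0.0233), while Grik2 did not (0.82, adjusted p = 0.0579). Thus 0 of 4 NMDA receptor genes with a probe pair passed at this threshold, although Grin2a, Grin2b and Grin3a reached unadjusted p of 0.0439, 0.0316 and 0.0148. The Grin3a pair did pass with normexp background (1.37, adjusted p = 0.0133) and with the filter on all 4 arrays (adjusted p = 0.0432). Whether the receptor families differ in the response of their probe pairs was not tested.

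**Figure D3:**
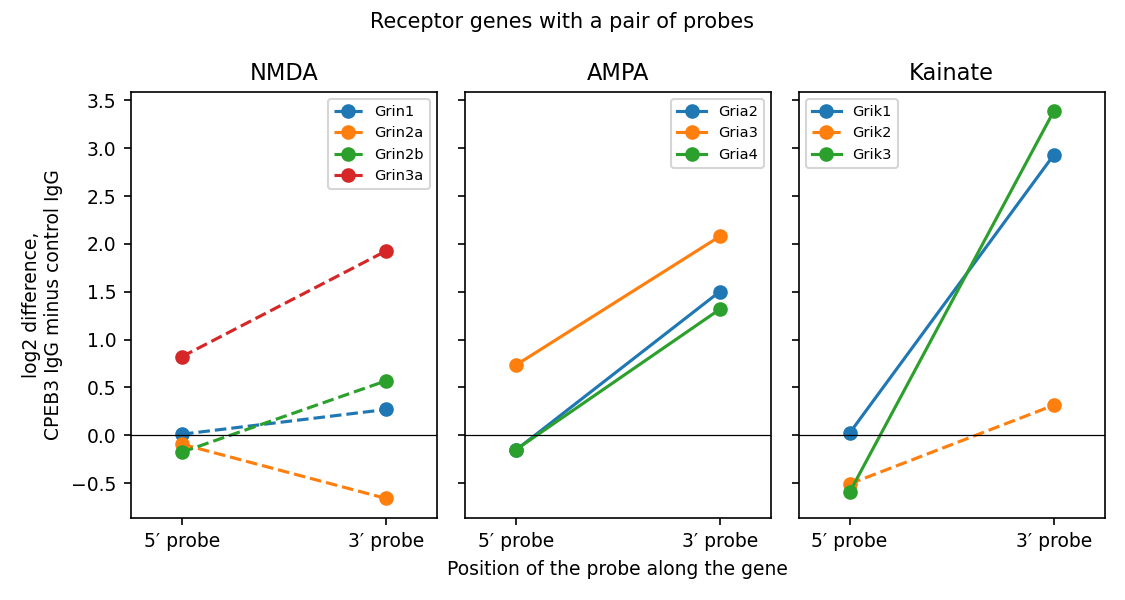
Difference between the precipitates (log2, CPEB3 IgG minus control IgG) at the 5′ and the 3′ probe of each glutamate receptor gene with a probe pair, joined by a solid line where the probes differed at adjusted p under 0.05 in genome order and a dashed line where they did not. The 3′ probe has the higher value in Grin1, Grin2b and Grin3a and the lower one in Grin2a, and all 4 NMDA receptor lines are dashed.

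Over the whole array the difference went with where and what a probe is. Its correlation with log2 of the probe's start on the transcript was 0.33 over 22090 probes, with the percentage of T 0.28 and with the percentage of G and C -0.23 over 40608 probes. These are descriptions across probes that share the same 4 arrays. Among the NMDA receptor probes the percentage of T ran from 13.3% (Grin1 5′) and 16.7% (Grin3a 5′) to 35% (Grin3a 3′) and 40% (Grin2b 3′), around a median of 28.3% over all tested probes. The 3′ probes of Grin2b and Grin3a thus held more T than their 5′ probes, as did that of Grin1 (26.7%), while Grin2a held less at its 3′ probe (23.3% against 28.3%). Whether the percentage of T goes with the change between the probes of these genes was not tested.

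The letters TTTTAT and TTTTAAT, the DNA forms of cytoplasmic polyadenylation elements, and TTTTT were searched on the transcript's strand of each 60-base probe, where TTTTT may overlap the others. TTTTAT was found in 1 of the 11 probes, the 3′ probe of Grin3a printed above, and in 3.69% of all probes on the array. TTTTT was found in the Grin2d probe alone, against 10.2% of all probes, and TTTTAAT in none of the 11, against 0.912%. A probe covers a small stretch of its transcript, so these matches say nothing of the rest of it.

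With the brightest probe standing for each gene, 1 of the 7 NMDA receptor genes was called higher, Grin3a (adjusted p = 0.00388). Grin3b met the threshold for lower (adjusted p = 0.0410), again after passing the filter only through the control arrays. Of 27681 genes tested 39.4% were called, 19.2% higher and 20.2% lower, with a median difference of -0.14, against 0.19 over the 7 NMDA receptor genes. The gene call of Grin2b depended on the probe, since it was -0.18 at its brightest probe and 0.57 (adjusted p = 0.0466) with the probe of highest start on the transcript.

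The other ionotropic glutamate receptors give the nearest comparison. All 4 AMPA receptor genes, which carry fast excitatory transmission, were called higher, with a median of 1.41. Gria3 differed by 2.08 (adjusted p = 0.00400), Gria2, a known CPEB3 target, by 1.503 (adjusted p = 0.00550) and Gria4 by 1.32 (adjusted p = 0.00672). Of the 5 kainate receptor genes 4 were called higher, with a median of 1.86, led by Grik3 (3.39, adjusted p = 0.00386), Grik1 (2.93, adjusted p = 0.00386) and Grik5 (1.86, adjusted p = 0.00461). These values depended on the probe. With the mean of a gene's probes, Gria2 was at 0.67 (adjusted p = 0.0698) and lost its call, Gria4 was at 0.58, Grik3 at 1.40 and Grik1 at 1.48. The delta receptor gene Grid1 (0.75, adjusted p = 0.242) was not called. By probe, 4 of 7 AMPA and 4 of 8 kainate receptor probes were called, all higher, against 1 higher and 1 lower of 11 for the NMDA receptor. The medians by probe were 0.73, 0.77 and 0.19 in that order, against -0.19 over all probes. The 5′ probes of Gria2 (-0.16), Gria3 (0.73), Gria4 (-0.15), Grik1 (0.02), Grik2 (-0.51) and Grik3 (-0.60) were not called. At the brightest probe of each gene, Grin3a had a difference in the range of the called AMPA receptor genes, and the other 6 NMDA receptor genes lay between -0.87 and 0.70. The medians of the brightest probes kept their sign under every scaling tried, at 1.33 to 2.13 for AMPA and 1.74 to 2.57 for kainate receptor genes. The fourth AMPA receptor gene, Gria1 (0.72, adjusted p = 0.0355), lost its call whichever array was left out, at 0.59 to 0.84 and adjusted p of 0.0590 to 0.147. No test compared the families.

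Genes whose products anchor, modify or feed the NMDA receptor were described in 5 lists of 47 genes, of which 16 were called higher and 7 lower, with a median of 0.13. Over all genes 19.2% were higher and 20.2% lower. Without CPEB3 IgG replicate 1 the counts were 7 and 2, and without CPEB3 IgG replicate 2 they were 8 and 2. Among 13 scaffolds and anchors 3 were called higher and 1 lower, with a median of 0.06 whose sign turned with quantile normalisation (-0.07) and with each array left out. Akap9, whose products include the anchoring protein yotiao that binds GluN1, has 1 probe, which starts at base 11982 of its transcript. Whether that probe reads the yotiao form was not analysed here. The Akap9 probe read 3.66 and 3.62 with CPEB3 IgG, against 1.12 and 1.23 with control IgG. Its difference was 2.46 ± 0.15 (SE, n = 2 per group, adjusted p = 0.00386). Lin7b, a PDZ protein of the complex that carries GluN2B, went the other way, at 0.79 and 0.94 against 3.15 and 3.52, a difference of -2.47 ± 0.20 (SE, n = 2 per group; adjusted p = 0.00398). In both genes the precipitates were far apart compared with the replicates. Lin7c, a close relative of Lin7b, was higher by 1.14 (adjusted p = 0.0109), a call lost without CPEB3 IgG replicate 1 (1.05, adjusted p = 0.0650) or 2 (1.23, adjusted p = 0.0503). Dlg4, which encodes PSD-95, gave 0.08 (adjusted p = 0.758) and was named after its value was seen.

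Among 17 kinases and phosphatases that act on the receptor 8 were called higher and 2 lower, with a median of 0.54, against 19.2% higher and 20.2% lower over all genes. Without CPEB3 IgG replicate 1 these counts were 4 and 1, and without CPEB3 IgG replicate 2 they were 5 and 1. Csnk2a1, a catalytic subunit of casein kinase 2, which phosphorylates GluN2B, was higher by 2.15 (adjusted p = 0.00386) at its brightest probe, but with the mean of its probes it was at 0.47 and lost its call (adjusted p = 0.0765). Dapk1, a death-associated kinase that binds GluN2B, was higher by 1.91 (adjusted p = 0.00726), and Camk2g, a form of calcium/calmodulin kinase II, by 1.64 (adjusted p = 0.00442). The 2 called lower were Csnk2b, the regulatory subunit of casein kinase 2 (-1.55, adjusted p = 0.00495), and the tyrosine kinase Src (-1.19, adjusted p = 0.0195), named after their values were seen. With spike-in scaling 7 of the 17 were called higher and 0 lower, so both of these calls were lost. With median scaling 8 were called higher and 1 lower.

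Among 8 genes that signal downstream of the receptor 1 was called higher and 3 lower, with a median of -0.49. Over all genes 19.2% were called higher and 20.2% lower. Rasgrf2, an exchange factor that links NMDA receptors to Ras, was called lower, at -1.08 (adjusted p = 0.0104). The calmodulin gene Calm3 (-1.06, adjusted p = 0.00954) was called lower at its brightest probe, but with the probe of highest start it was at 0.40 (adjusted p = 0.172). The 1 gene called higher was another calmodulin gene, Calm2 (0.75, adjusted p = 0.0295), named after its value was seen. The call of Calm2 was lost with quantile normalisation and whichever array was left out. The calls of Rasgrf2 and Calm3 were lost without CPEB3 IgG replicate 1 or 2, at adjusted p of 0.0540 to 0.0601. With spike-in scaling 0 of the 8 were called and the median was 0.23. With no scaling 0 of the 8 were called as well. Of 4 trafficking and partner proteins 2 were called higher, against 19.2% over all genes. Lrp1, an endocytic receptor that interacts with the NMDA receptor, was higher by 2.88 (adjusted p = 0.00386), and Neto1, an auxiliary subunit, by 0.92 (adjusted p = 0.0167). The value of Neto1 was -0.39 (adjusted p = 0.180) with its probe of highest start, and its call was lost with each array left out (adjusted p 0.0514 to 0.0827).

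Of 5 genes that supply or remove co-agonist 2 were called higher and 1, Dao, met the threshold for lower. Over all genes 19.2% were called higher and 20.2% lower. The median of the 5 genes was -0.30. The median was 0.42 with spike-in scaling and 0.25 without control IgG replicate 1, so its sign turned. Srr, the enzyme that makes D-serine, read 4.15 and 4.18 with CPEB3 IgG, against 2.66 and 2.72 with control IgG, a difference of 1.47 ± 0.15 (SE, n = 2 per group; adjusted p = 0.00486). Both CPEB3 IgG arrays lay well above both controls at this probe, but with the mean of its probes Srr was at 0.14 and lost its call (adjusted p = 0.499). The glycine transporter gene Slc6a9 was higher by 0.75 (adjusted p = 0.0389). Dao, the enzyme that breaks down D-serine, had measured means of -6.13 with CPEB3 IgG and -4.05 with control IgG (adjusted p = 0.0261). It was not well above background on either CPEB3 IgG array. With the bound used for Grin3b its level was 1.86-fold lower there, a value that leaves out the spread between arrays. Dao too passed the filter only through the control arrays, and with normexp background it was at -0.25 (adjusted p = 0.378). The call of Dao was lost without CPEB3 IgG replicate 1 or 2 or control IgG replicate 1, and Dao ran from -2.39 to -1.08 over each array left out. It was also lost with quantile normalisation (adjusted p = 0.103) and spike-in scaling (adjusted p = 0.0785). The call of Slc6a9 was lost without CPEB3 IgG replicate 1 or 2 or control IgG replicate 2, and Slc6a9 ran from 0.58 to 0.91 over each array left out. It was also lost with quantile normalisation (adjusted p = 0.0508), spike-in scaling (adjusted p = 0.0541), no scaling (adjusted p = 0.279) and no filter on dim probes (adjusted p = 0.0706).

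**Figure D4:**
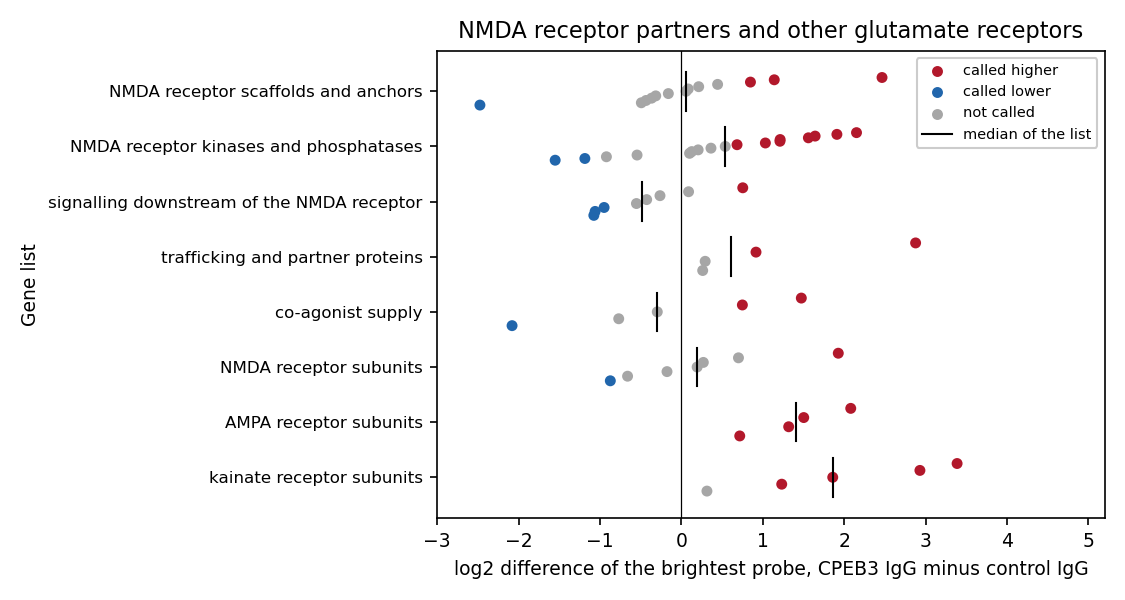
Difference between the precipitates (log2, brightest probe of each gene, CPEB3 IgG minus control IgG, n = 2 arrays per group) for NMDA receptor subunits, the 5 lists of partner genes and the AMPA and kainate receptor subunits, coloured by call, with the median of each list as a vertical line. All 4 AMPA receptor genes lie to the right of 0 and were called, while 1 NMDA receptor gene (Grin3a, 1.93) was called higher.

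For each subunit well above background on all 4 arrays, the genes with the most similar pattern were found by Euclidean distance over the 4 arrays among 17119 genes, after centring each gene on its own mean. The nearest to Grin3a were Psmd7 (distance 0.013, difference 1.93) and Pced1b (distance 0.040, difference 1.90), and 355 genes lay within 0.25. Those nearest to Grin1 were Dntt and Marveld1, to Grin2a 4921531P14Rik and Cbx5, to Grin2b 1700094M24Rik and Zfp839, and to Grin2d Usp34 and Rbfox2, with 219 to 1002 genes within 0.25 of each of these subunits. The pattern of Grin2c, with its low second control array, was the least shared: Sypl (distance 0.038) and Klhl29 (distance 0.077) were nearest, and 8 genes lay within 0.25. With 4 arrays, small distances are reached by many genes.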

How the data were processed

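Each array is a scanner file of 62976 spots, of which 3671 are control spots. Per the file headers, the deposited intensity is the processed Cy3 signal of Agilent Feature Extraction 10.5.1.1, corrected for background within the array and not scaled between arrays, and probe coordinates are on mm9. The authors' own tests are not given in the sources used here. Groups come from the sample titles.

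Control spots and 123 to 223 outlier spots per array were left out, spots of a probe were averaged as log2 values, and each array's 75th percentile over distinct probes was subtracted. Symbols were updated through RefSeq accessions (27509 probes matched). Differences were tested with limma 3.58.1 (lmFit and eBayes) in R 4.3.3 and adjusted by Benjamini-Hochberg over all probes, genes or probe pairs tested. The fit was tested on simulated data. The members and the lists were chosen with earlier results of these data known, and the lists are not independent evidence. Genes named are every probe of the members, up to 3 called genes per list with the largest differences (or the 2 with the smallest p), and the 2 nearest genes per member, besides those said to be named after their values were seen. Some genes that the rule takes stayed in the fits and counts and are not reported here. A gene with several probes was represented by its brightest. Intervals cover 95% of a single fit, and the number of arrays limits the precision. Replicates shared 0 identical spot values.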

Additional observations from a re-analysis of the deposited data

How the results depend on the processing

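Depth is limited by signal over background: the 5′ probe of Grin1 and the probes of Grin2d and Grin3b were dim, and with 2 arrays per group small differences could not pass. The 75th percentile over all spots and the genome order of probes were chosen after seeing the data. Of the NMDA receptor probes, the Grin3a 3′ probe kept its direction and call in all 15 other settings, at 1.77 to 2.64, and that of Grin3b kept its direction in the 14 that could test it. Grin3b and Dao could not be tested among probes well above background on all 4 arrays. The median over all probes moved by 0.19 with quantile normalisation, 0.29 with median scaling and 0.72 with spike-in scaling. The cause of the changes below was not tested.

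With 14111 probes called (6423 higher, 7688 lower), 10908 genes called and 1438 probe pairs that differed as the counts reported, spike-in scaling called 7440 probes (966 lower) and 5743 genes, median scaling 4317 probes lower, no scaling 3936 probes higher and 6740 genes, no filter on dim probes 9352 probes (4702 lower), and adjusted p 0.01 gave 4750 probes (2735 higher, 2015 lower), 4437 genes and 379 pairs. Of the NMDA receptor probes, those called higher numbered 2 with quantile normalisation, spike-in scaling and normexp background, and 3 with median scaling, the filter on all 4 arrays and the intensity trend. Those called lower numbered 0 with median, spike-in and no scaling, no filter and adjusted p 0.01, and the NMDA receptor genes called lower numbered 0 in the same settings and 2 with the percentile over spots (Grin2a added, adjusted p 0.0460). NMDA receptor genes called higher numbered 2 with the probe of highest start. Their probe pairs on the same transcript that differed numbered 1 with quantile normalisation (Grin2a), the filter on all 4 arrays and the intensity trend (Grin2b), and 2 with normexp background. In genome order the Grin3a pair differed with normexp background and with the filter on all 4 arrays. Partner genes called higher and lower numbered 9 and 4 with no scaling and 8 and 3 with adjusted p 0.01, and those called lower 1 with spike-in scaling and 11 with the mean of probes.

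Signs turned for the Grin2a 5′ probe with quantile (0.0846), median (0.20) and spike-in scaling (0.62), for the Grin2a 3′ probe and gene with spike-in scaling (0.0550), and for the Grin2b 5′ probe and gene with median (0.11) and spike-in scaling (0.54). They also turned for the Grin2b gene with the mean of probes (0.20) and the highest start (0.57), for the Grin1 5′ probe with no scaling (-0.0244) and the percentile over spots (-0.0267), and for the Grin1 probe pair with quantile normalisation (-0.23). Calm3 (0.40) and Neto1 (-0.39) turned with the highest start.

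With each array left out in turn, the group left with 1 array is assumed to vary like the other. The ranges were 4461 to 10057 probes called (2369 to 4685 higher, 2092 to 5372 lower), 4429 to 8861 genes, 400 to 952 pairs, and for partner genes 7 to 13 higher and 2 to 8 lower. Called NMDA receptor probes ran from 1 to 2 higher and from 0 to 0 lower, and NMDA receptor genes from 1 to 2 higher and 0 to 1 lower. Values ran from -0.33 to 0.35 for the Grin1 5′ probe, -0.21 to 0.0229 for the Grin2a 5′ probe, -0.0240 to 0.41 for Grin2d and -0.00407 to 0.52 for the Grin1 probe pair.

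The groups share replicate numbers, but same-numbered arrays share only a number, with a correlation of deviations of 0.36 from 2 pairs. With the replicate number as a block 15845 probes were called, and the NMDA receptor probes called higher were 2, the 5′ probe of Grin3a (0.82, adjusted p 0.0421) being added, and it changed no other NMDA receptor call.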
